A study of Schizosaccharomyces pombe with 36 samples.

Results

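In 115 stretches of the fission yeast genome neither direction of replication fork was strongly preferred. Replication forks were mapped there by polymerase usage sequencing (Pu-seq), in which ribonucleotides left by a mutant DNA polymerase are counted on each strand in 300-bp bins. The share of forks moving rightward, R, was estimated in each bin as the mean of the Pol ε share on the forward strand and the Pol δ share on the reverse strand, so that 0.5 is an even mixture of rightward and leftward forks. The stretches were chosen on 4 pairs of strains with the barrier off: each library's counts were scaled to its total, added up across the 4 pairs per polymerase and strand and smoothed over 7 bins, and every run of 20 or more bins (6 kb) with R from 0.42 to 0.58 was kept. Bins within 100 kb of a chromosome end and those at 840 to 900 kb on ChrII, which hold the barrier construct, were left out. The 115 stretches are those that reached this length out of 922 runs of any length. The R values of the 4 barrier-off pairs therefore chose the stretches and are given only as description, while the other 12 pairs and the 4 Pol α libraries took no part in the choice.

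The data analysed here were 36 libraries of Schizosaccharomyces pombe from log-phase cells in YE medium at 30°C, as 16 pairs of a Pol δ mutant (cdc6-L591G, or cdc6-L591M in the inverted pair) and a Pol ε mutant (cdc20-M630F), and 4 single Pol α mutants (pol1-L850F). All strains carried ade6-704 leu1-32 ura4-D18 and lacked normal ribonucleotide excision through either rnh201-RED (RED) or a disrupted rnh201 (rnh201-d). RTS1 is a polar replication fork barrier that works only when the protein Rtf1 is bound, so the barrier is on with rtf1+ and off in rtf1::nat. In the RTS1-rRFB strains RTS1 and ura4 stood on ChrII at ChII-8535 with 10 copies of the ribosomal DNA fork barrier farther downstream, and the natural RTS1 was replaced by RTS1natural::Phleo. The 4 barrier-on and the 4 barrier-off RTS1-rRFB pairs were each RED pku70-d (Ku70::hyg), RED, rnh201-d pku70-d (given as Ku70:leu2) and rnh201-d. The genotype given for the rnh201-d barrier-off pair names only RTS1 and ura4 at the locus. The remaining 8 pairs were adh-rtf1 (rnh201-d, RTS1-rRFB, rtf1 driven by the adh1 promoter), tandem RTS1 (rnh201-d, tandem RTS1 at the same locus), inverted RTS1 (RED, adh1-rtf1, a second RTS1 barrier farther along ChrII), RTS1 without the array at ChII-8535, ChI-3220, ChI-4740 and ChI-5234 (TuraR, rnh201-d, without RTS1natural::Phleo), and 10xrRFB at ChI-3220 (rnh201-d, the array without RTS1). The Pol α strains were RED and rnh201-d RTS1-rRFB strains, each with the barrier on and off.

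One library of each strain was analysed here, so no pair has a replicate of its own, and the spread between pairs holds genotype, clone and library together. Library totals ran from 3304406 to 84420592 counts. Counts over rtf1, relative to its flanks, were 0.668 to 1.0 in 24 libraries of strains with the barrier on and 0.0278 to 0.262 in 10 with it off, the 10xrRFB pair, whose rtf1 labels differ, being left out. Counts over pku70 were 0.0032 to 0.0158 in the 4 RED pku70-d libraries, against 0.807 to 1.20 in 27 pku70+ libraries. The 4 libraries labelled rnh201-d pku70-d had 0.905 to 1.05 there, so their counts do not show the gene removed, and the Pol α library of rnh201-d with the barrier off, labelled pku70+, had 0.0021. The genotypes of the inverted pair name the polymerases the other way round from the titles. The titles were followed, and over 1982 windows of 6 kb R of this pair correlated with the summed barrier-off pairs at 0.993, with the points sharing base composition and genome position. The genotypes of the ChI-4740 pair list rtf1::nat although its title gives the barrier as on.

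At an origin a pair of forks leaves in opposite directions. On a rightward fork Pol ε copies the leading strand as the forward strand and Pol δ makes the lagging strand as the reverse strand, after Pol α has laid down primers, and on a leftward fork the strands change places. Where forks from neighbouring origins meet they terminate, and because the meeting point and the set of origins used differ between cells, a population of cells can show forks of both directions at one position. Fission yeast origins lie largely in AT-rich intergenic DNA with runs of A or T.

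The stretches are long, so a piece of 150 bp was taken from within each of the 4 longest to show the kind of DNA they hold. Each is the piece between annotated genes with the most bases in runs of 8 or more A or T and, among equals, the highest AT content, so the pieces were picked for these features. They are read from the RefSeq assembly ASM294v3 on its forward strand, and the run is in capitals.
sec71 stretch, chrI:5351909-5352058: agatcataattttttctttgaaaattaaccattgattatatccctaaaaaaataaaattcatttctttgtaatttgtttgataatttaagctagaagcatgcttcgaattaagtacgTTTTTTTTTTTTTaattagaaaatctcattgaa
SPAP14E8.05C stretch, chrI:1921977-1922126: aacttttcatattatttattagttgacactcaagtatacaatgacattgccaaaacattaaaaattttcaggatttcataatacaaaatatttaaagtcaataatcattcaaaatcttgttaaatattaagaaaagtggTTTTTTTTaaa
pby1 stretch, chrI:4577309-4577458: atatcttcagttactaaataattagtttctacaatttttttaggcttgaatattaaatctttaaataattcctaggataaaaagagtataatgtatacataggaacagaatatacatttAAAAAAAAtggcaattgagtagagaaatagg
vas2 stretch, chrI:1619235-1619384: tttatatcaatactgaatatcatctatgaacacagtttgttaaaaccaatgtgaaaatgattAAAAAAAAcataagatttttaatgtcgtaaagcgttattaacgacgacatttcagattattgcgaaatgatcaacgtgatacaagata

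The first piece lies between sec71, which encodes an exchange factor for ARF GTPases, and pgc1, 1.5 kb right of the midpoint of its stretch, with 79.3% AT and a run of 13 T. The second, between 2 genes for non-coding RNAs, was 80.0% AT. The pieces beside bun62 and between vps41 and vas2 were 77.3% and 73.3% AT. Both AAAAAAAA and its complement TTTTTTTT were searched on the forward strand, overlapping matches being joined into 1 run. A run was found in 113 of the 115 stretches (98.3%). Among 6-kb windows, shorter than most stretches, the share was 93.2% in 1698 that hold no bin of a stretch and 93.1% in all 1982. Of the 150-bp pieces, 7.6% held a run in the stretches, 8.1% in the 1698 other windows and 8.0% in all 1982. The density of runs had a median of 0.546 per kb in the stretches and 0.5 per kb in the other windows. AT content was likewise close, with a median of 64.2% (60.6 to 68.1%) in the stretches and 63.9% in the other windows.

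The stretches covered 1116.6 kb, 8.88% of the genome. ChrI held 60 of them (604.5 kb, 10.83% of its length), ChrII 38 (343.5 kb, 7.56%) and ChrIII 17 (168.6 kb, 6.88%). ChrI thus had 52.2% of the stretches and 43.8% of the other windows. The median length was 8.1 kb (interquartile range 6.6 to 10.5 kb), 72 were no longer than 9 kb and 22 exceeded 12 kb. Neighbours were mostly far apart, with a median gap of 62.55 kb, but 9 gaps were of 3 kb or less and 15 more of up to 12 kb. In the closest case a single bin of 0.3 kb separated ChrI 586801 to 593400 from ChrI 593701 to 600000.

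The limits cut a continuous distribution. Of all 41912 bins of the genome, including those the rule left out, 10160 (24.2%) had R within the limits, and 36.6% of these were in a stretch. The 12 stretches of exactly 20 bins had R of 0.454 to 0.542 in the summed barrier-on pairs and 0.444 to 0.523 in the summed barrier-off pairs. The 16 runs of 19 bins (5.7 kb), which just missed the length, had 0.448 to 0.540 with the barrier on and 0.475 to 0.545 with it off.

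The longest stretch spanned 43.8 kb at ChrI 5328601 to 5372400 with sec71 at its midpoint. Its R was 0.491 in the summed barrier-on pairs and ran from 0.479 to 0.495 over the 12 pairs not used in the choice, with a median of 0.489. It was 0.499, 0.495, 0.490 and 0.490 in the RED pku70-d, RED, rnh201-d pku70-d and rnh201-d barrier-off pairs. All 16 pairs thus lay within 0.02 of each other, slightly on the leftward side. The 3 that follow in length are also on ChrI. The 28.8-kb stretch at ChrI 1914001 to 1942800, by SPAP14E8.05C, had R of 0.486 to 0.520 over the 12 pairs with a median of 0.498. The 25.8-kb stretch at ChrI 4568401 to 4594200, at pby1, had 0.481 to 0.529 with a median of 0.505. The 24.9-kb stretch at ChrI 1607101 to 1632000, at vas2, had 0.466 to 0.506 with a median of 0.495. None of these 4 left the limits in any pair. The fifth, of 17.4 kb, lies at ChrIII 876301 to 893700 on tim23, which encodes a subunit of the mitochondrial inner membrane translocase, and had R of 0.486 to 0.532. The sixth, of 16.8 kb at ChrI 508501 to 525300 on rna4, had R of 0.454 to 0.490 and so was below 0.5 in all 12.

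**Figure D1:**
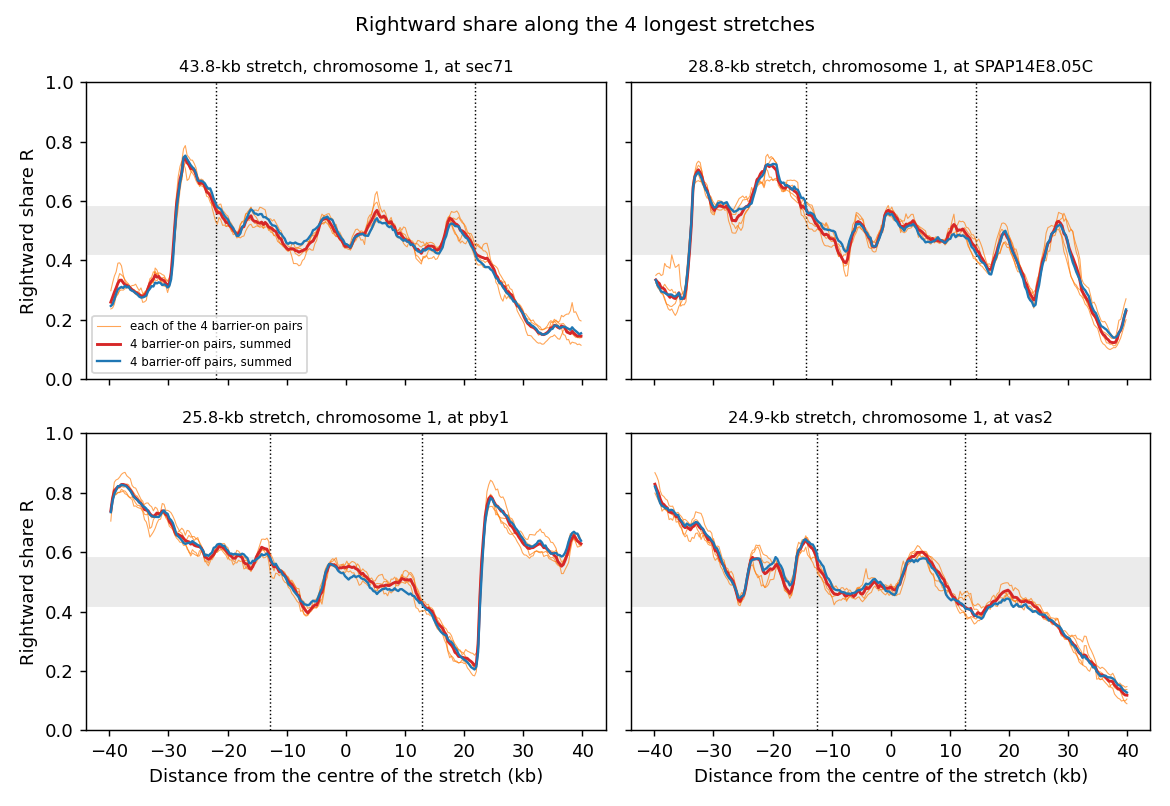
Smoothed rightward share R (y axis, no unit) against distance in kb from the centre of each of the 4 longest stretches, for the 4 barrier-on pairs each (thin orange) and summed (red) and the 4 barrier-off pairs summed (blue). Dotted lines mark the ends of the stretch and grey the limits 0.42 to 0.58, and in all 4 panels R wavers about 0.5 between the dotted lines. Farther out it reaches clearly higher and lower values, though at vas2 the flanks 5 to 10 kb away, 0.535 and 0.452, are still within the limits.

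The mean of a stretch hides this waver. In the summed barrier-on pairs the smoothed R stayed within the limits in every bin of 41 stretches, while 74 left them in at least 1 bin, with extremes of 0.379 and 0.614. The median span between the highest and lowest bin of a stretch was 0.149. R usually fell along the stretch: it was higher left of the midpoint than right of it in 98 of 115 (85.2%), against 65.8% of the other windows, and the median difference in the stretches was 0.0496. The stretch at gsk31, a GSK3-family kinase gene, on ChrII 1356001 to 1371300 is a clear case, with 0.530 left and 0.451 right of its midpoint and a mean of 0.487. The stretches were picked for barrier-off R staying within the limits along their length, so the 85.2% is a description.

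In each pair the choice did not use, R of most stretches held close to even. With the barrier on, all 115 lay within 0.42 to 0.58 in RED pku70-d (25.7% of all 6-kb windows did), in RED (25.9%), in rnh201-d pku70-d (26.9%) and in rnh201-d (25.6%), as they did in the sum of these 4 pairs (26.1%). All 115 were also within the limits in tandem RTS1 (26.9% of windows), inverted RTS1 (32.4%), RTS1 at ChII-8535 (32.9%) and RTS1 at ChI-4740 (32.5%). The number was 114 in adh-rtf1 (25.7% of windows), 111 in RTS1 at ChI-3220 (26.5%), 111 in RTS1 at ChI-5234 (25.8%) and 109 in 10xrRFB at ChI-3220 (26.9%). The windows cover the genome under the same exclusions, whatever their R, whereas the stretches had been picked for such values in 4 pairs of the same series, so the gap between the shares is no finding in itself. In the pairs used, 114 were within the limits in rnh201-d pku70-d and 115 in each of the other 3. The median R over the stretches lay between 0.498 and 0.506 in all 16 pairs. Some stretches still leaned to 1 side in every pair. R was 0.528 to 0.569 at ChrI 2918701 to 2931600 on amt3 and 0.424 to 0.475 at ChrI 4635901 to 4641900 on asc1. The standard error from counting was at most 0.0076 for any stretch in any pair, without account of library or clone.

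Barrier on and barrier off differed little. Between the summed pairs the absolute difference in R had a median of 0.0077 and a maximum of 0.0248. The maximum was at ChrI 4816201 to 4822800 on hri1, which encodes a kinase of the translation factor eIF2α, with R of 0.480 with the barrier on and 0.505 with it off. The stretch nearest to the ChrII construct was close to that maximum in size but moved the other way: ChrII 918601 to 933300 on tor2, the gene for the catalytic subunit of TOR complex 1, had R of 0.494 with the barrier on and 0.470 with it off. The next to the right, ChrII 982201 to 988200 on usp103, which encodes a U1 snRNP protein, had 0.542 with the barrier on and 0.523 with it off. Pair by pair, R at hri1 was 0.472 to 0.495 with the barrier on and 0.501 to 0.511 with it off. At tor2 it was 0.490 to 0.497 on and 0.463 to 0.478 off, while at usp103 the values on and off overlapped. The hri1 stretch was named for its large difference. How many stretches or windows separate on from off in this way was not counted, so these ranges are a description. The barrier-off values chose the stretches, so no test was made of barrier on against off.

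**Figure D2:**
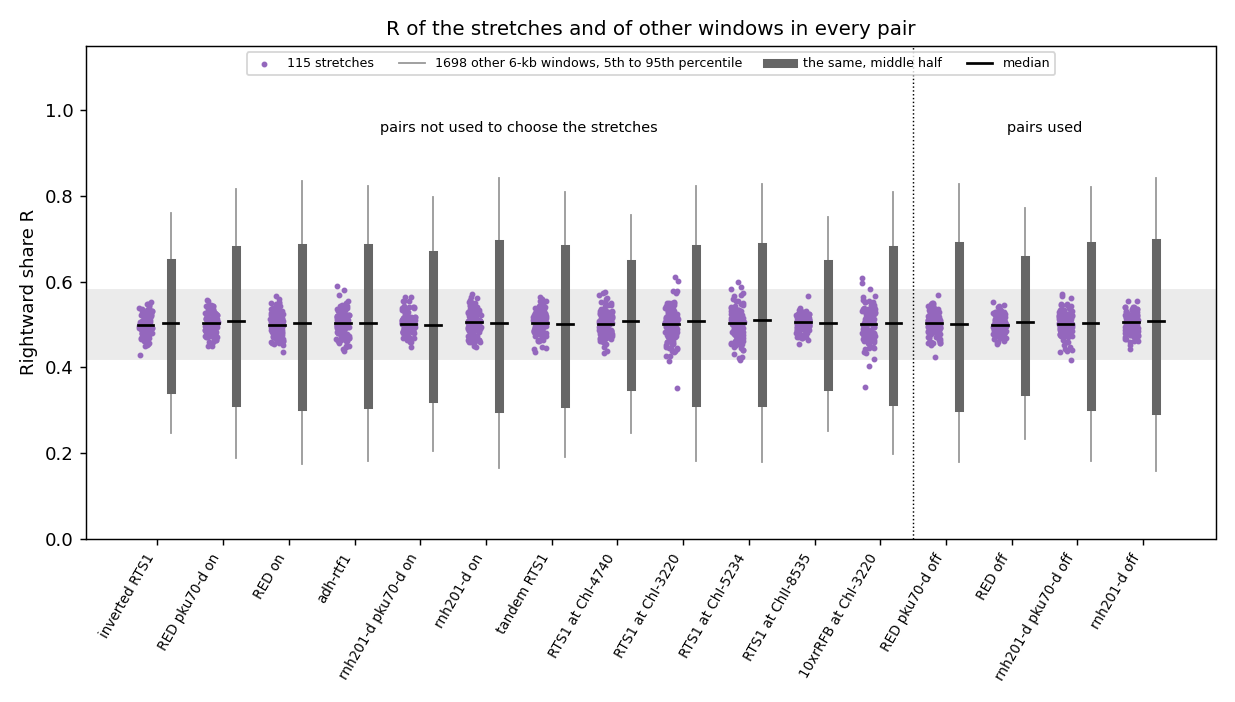
Rightward share R (y axis, no unit) in each of the 16 pairs (x axis) for the 115 stretches (points, left of each position) and for 1698 other 6-kb windows (bars and lines, right), with medians in black; the 12 pairs left of the dotted line took no part in the choice. The stretches keep medians of 0.498 to 0.506 throughout, and the widest scatter is in RTS1 at ChI-3220 and 10xrRFB at ChI-3220.

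Over the 12 unused pairs, 106 of 115 stretches were within the limits in all 12, against 10.7% of the other windows and 16.6% of all 6-kb windows. These shares are again no finding in themselves, as the stretches were picked for such values. The range of R over these pairs had a median of 0.0485 in the stretches, 0.0597 in the 317 other windows within the limits in the summed barrier-on pairs and 0.0821 in all other windows, which are shorter than most stretches. The steadiest stretch was ChrI 2465101 to 2481600 (16.5 kb), whose midpoint was 322 bp from the gene prl65, with R of 0.501 to 0.515. The sec71 stretch followed with a range of 0.0154. The gsk31 stretch came next, with R of 0.478 to 0.495.

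The most variable stretch was at ChrI 3355801 to 3365400 (9.6 kb) on dhp1, which encodes a nuclear 5′ to 3′ exoribonuclease. R was 0.351 in RTS1 at ChI-3220 and 0.353 in 10xrRFB at ChI-3220. It was 0.503 to 0.554 in the other 10 unused pairs, so the 2 pairs that carry a construct at that ChrI site stood apart and all others overlapped. The construct itself was located at 3324 kb, 32.0 kb to the left. The second was the 6.3-kb stretch at ChrI 3284101 to 3290400 on rpc82, a subunit gene of RNA polymerase III, 33.4 kb left of the same site. It moved the other way, with R of 0.611 and 0.608 in those 2 pairs, against 0.469 to 0.574 in the other 10. Forks were thus more often rightward on the left of the construct and more often leftward on its right than in the other pairs. At both stretches the RTS1 pair and the array pair lay closer to each other than to any other unused pair, with counting errors of 0.0031 to 0.0045.

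The third was ChrII 3143701 to 3151200 on SPBC405.02C, with R of 0.590 in adh-rtf1, against 0.464 to 0.554 in the other unused pairs, and 0.436 to 0.536 in the pairs used. Here the used and the unused pairs overlapped, and adh-rtf1 alone was above 0.58.

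**Figure D3:**
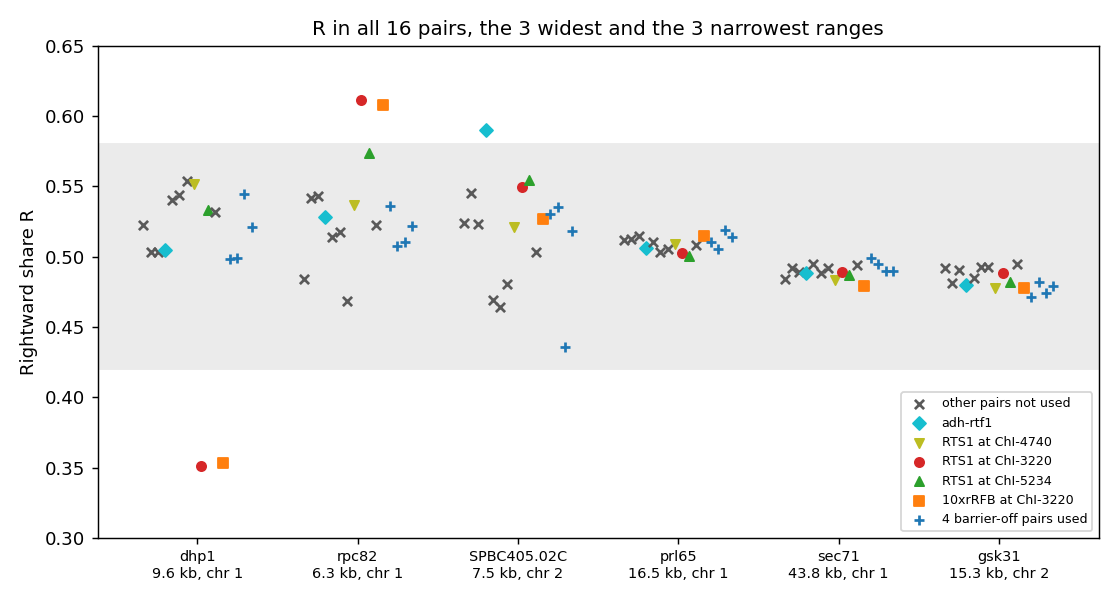
Rightward share R (y axis, no unit) in all 16 pairs for the 3 stretches with the widest and the 3 with the narrowest range over the 12 unused pairs (x axis, named by gene). At dhp1 and rpc82 the pairs with a construct at ChI-3220 stand apart at 0.351 and 0.353, and at 0.611 and 0.608; at prl65 all 12 unused pairs lie between 0.501 and 0.515.

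Stretches within 100 kb of the other ChrI sites did not show this. Beside RTS1 at ChI-4740, R of that pair was 0.472 at apl5, a gene for a subunit of the AP-3 adaptor, and 0.475 at hri1, both inside the range of the other unused pairs, and 0.475 at asc1, against 0.439 to 0.473 in the others. Beside RTS1 at ChI-5234 it was 0.439 at csm1, 0.514 at pyp3 and 0.487 at sec71, all inside the range of the others.

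The 4 pairs with a construct on ChrI also shared some shifts away from the constructs, taken as 100 kb or more from each ChrI site and from the ChrII bins left out, where 105 of the stretches lie. They were set against the 5 other unused rnh201-d pairs (adh-rtf1, rnh201-d pku70-d, rnh201-d, tandem RTS1 and RTS1 at ChII-8535), a comparison chosen after the values were seen. R of all 4 lay above all 5 at 10 of the 105 (9.5%, against 4.01% of all 6-kb windows equally far away) and below all 5 at another 10 (9.5%, against 4.17%). Among the 299 other windows this far away that were within the limits in the summed barrier-on pairs the shares were 7.7% and 6.7%, closer to those of the stretches. At ChrI 5110501 to 5118600 on hal4, a protein kinase gene, R was 0.433, 0.438, 0.423 and 0.419 in RTS1 at ChI-4740, ChI-3220 and ChI-5234 and in 10xrRFB, against 0.471 to 0.510 in the 5. At ChrI 1299301 to 1315800 on cdc48, which encodes an AAA ATPase, it was 0.462, 0.427, 0.417 and 0.444, against 0.467 to 0.517. At ChrI 1423201 to 1429500 on taf2, a TFIID subunit gene, it was 0.562, 0.602, 0.599 and 0.596, against 0.521 to 0.557. Relative to the mean of the 5, the mean of the 4 fell by 0.0668 at hal4, fell by 0.0579 at cdc48 and was higher by 0.0541 at taf2. The strains of the 4 pairs also lack RTS1natural::Phleo, as does the ChII-8535 pair among the 5, and the part of strain background in these shifts was not tested.

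To see what the stretches lay between, mean R was taken 5 to 10 kb outside each end. With the barrier on, 41 stretches (35.7%) had flanks with converging forks, R above 0.58 on the left and under 0.42 on the right, against 14.7% of the other windows. Diverging flanks were found at 3 (2.6%, against 22.1%), flanks with the same direction on both sides at 13 (11.3%, against 21.3%) and mixed flanks, with at least one side within the limits, at 58 (50.4%, against 41.9%). Most of the other windows had R outside the limits. Of the 317 other windows within the limits in the summed barrier-on pairs, 76 had converging and 59 diverging flanks. For the stretches the type was the same with the barrier off at 109 of 115 (94.8%, against 96.3% of the other windows). The left flank had the higher R in 99 of 115 (86.1%), against 47.5% of the other windows. Median R was 0.647 in the left and 0.379 in the right flanks of the stretches, against 0.473 and 0.528 for the other windows. The stretches were picked on the barrier-off profile that these flanks adjoin, so the shares are a description.

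Among the longest, the SPAP14E8.05C stretch had flanks of 0.676 and 0.369 and the pby1 stretch 0.598 and 0.259, both converging. The flanks of the sec71 stretch were 0.480 and 0.235, the first an average over a high and a low part of the profile and the second over leftward forks. The 3 stretches with diverging flanks were ChrI 1378501 to 1384500 on nhp6, an HMG-box gene (flanks of 0.295 and 0.703), ChrI 3753001 to 3761100 in the centromere (0.399 and 0.638) and ChrII 4350001 to 4356600 on chp2, which encodes an HP1-family protein (0.320 and 0.656). Their R was 0.489 to 0.501 with the barrier on, against 0.464 to 0.542 in the 43 stretches with converging flanks in the barrier-off pairs. The 13 stretches with one-way flanks in the barrier-off pairs had R of 0.454 to 0.554 with the barrier on. At apl5 on ChrI 4661401 to 4673700, flanks of 0.644 and 0.788 enclosed an R of 0.479.

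**Figure D4:**
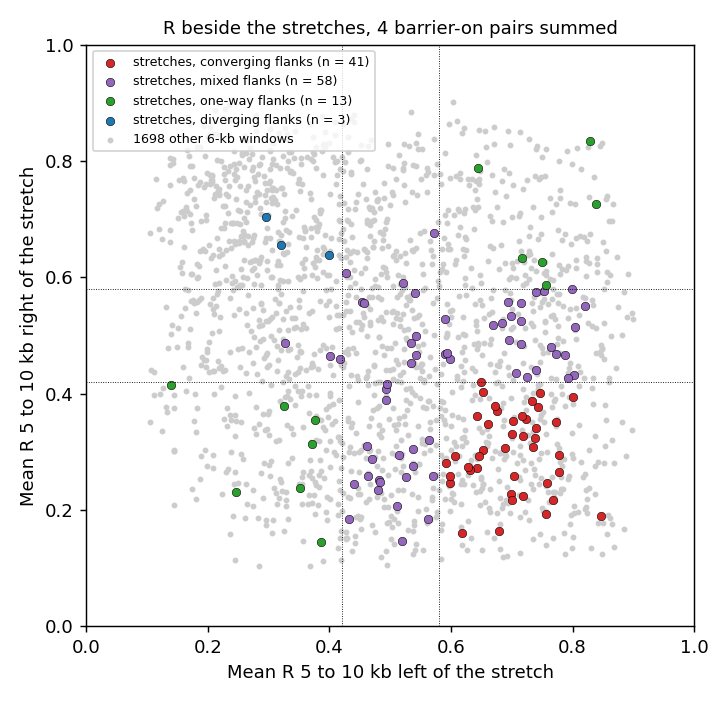
Mean R 5 to 10 kb right of each stretch (y axis, no unit) against mean R 5 to 10 kb left of it (x axis, no unit) in the summed barrier-on pairs, for the 115 stretches by flank type and for 1698 other 6-kb windows (grey). Dotted lines mark 0.42 and 0.58; 41 stretches fall in the lower right corner, where forks converge, and 3 in the upper left, where they diverge.

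The rule used the difference of the polymerase shares between the strands and not their mean. The Pol δ share averaged over both strands, M, was therefore compared as a separate readout. M is 0.5 where both polymerases have the same scaled counts. In the summed barrier-on pairs its median was 0.460 in the stretches (interquartile range 0.436 to 0.483) and 0.497 in the other windows (0.468 to 0.524). M exceeded 0.5 in 17 stretches (14.8%), against 47.1% of the other windows. The median was lower in the stretches in each of the 12 unused pairs, with differences between -0.0555 in inverted RTS1 and -0.0247 in 10xrRFB at ChI-3220. Both densities differed. Pol δ counts per bin, relative to the library's median bin, had a median of 1.06 in the stretches and 1.14 in the other windows, and Pol ε counts 1.16 and 1.10.

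Windows with similar R but other flanks had other M. Of the 317 other windows within the limits in the summed barrier-on pairs, the 76 with converging flanks had a median M of 0.452 and the 59 with diverging flanks 0.540. The 41 stretches with converging flanks had 0.445 and the other 74 had 0.467. Windows with R under 0.3 or over 0.7 had 0.502. The median of the stretches thus stood nearer to that of the converging than to that of the diverging windows. The level of M depends on how libraries are scaled. With each library scaled by its median bin the medians became 0.484 in the stretches and 0.515 in the other windows, still lower in the stretches. The values of both polymerases come from separate strains, and the part of sequence composition in M was not tested.

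**Figure D5:**
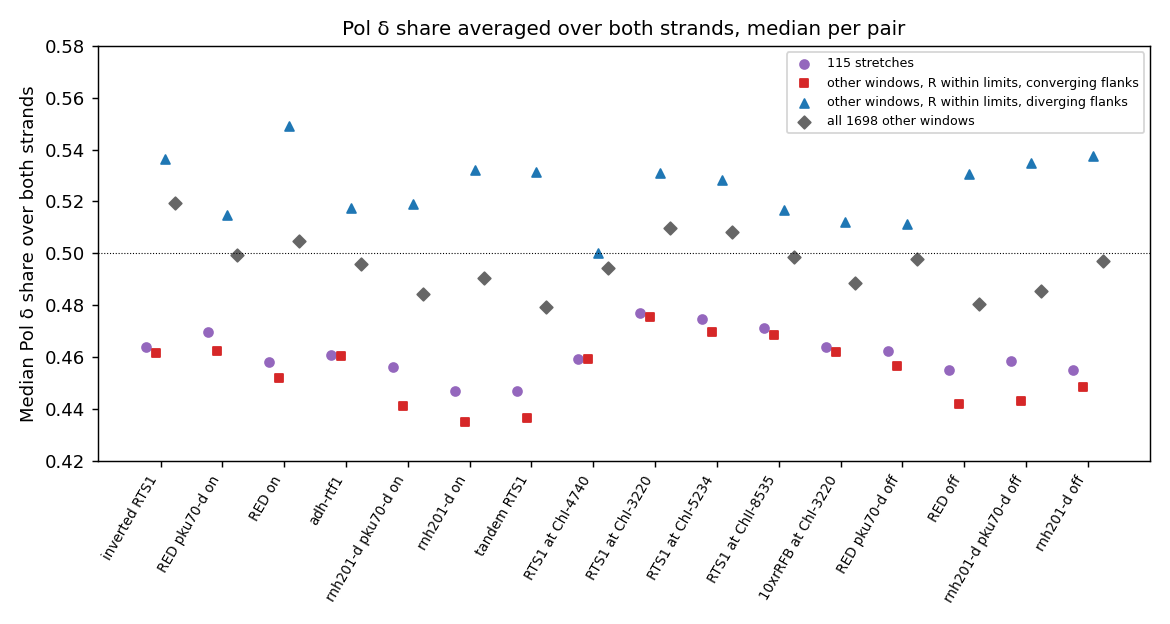
Median Pol δ share averaged over both strands (y axis, no unit, from 0.42 to 0.58) in each pair (x axis) for the 115 stretches, for other windows within the limits with converging or with diverging flanks, and for all 1698 other windows. The median of the stretches lies below that of all other windows in every pair, for example 0.447 against 0.491 in rnh201-d with the barrier on.

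The extremes of M were of different kinds. The lowest mean over all pairs, 0.414, was at ChrII 3389401 to 3395400 (6.0 kb, plt1 at its midpoint), whose Pol ε density was 1.36 and whose Pol δ density was 0.990 with the barrier on. The highest was 0.558 at ChrII 1614301 to 1622700, within the centromere. Of the 115 stretches, 4 lay in the longest intervals without a protein-coding gene of their chromosomes, which hold the centromeres: the diverging one on ChrI named above, ChrII 1614301 to 1622700 and 1633201 to 1641000, and ChrIII 1066501 to 1073400. Fission yeast centromeres are arrays of repeats with many tRNA genes, packed as heterochromatin around a central core. With the barrier on, M of the 4 was 0.558 to 0.572, above that of the other 111 (0.404 to 0.535). This was not so in every pair: in RTS1 at ChII-8535 M was 0.473 at both stretches of the ChrII centromere, against 0.518 on ChrI and 0.573 on ChrIII, while the ChrII values of the other 15 pairs all exceeded 0.5. Their summed barrier-on Pol δ density was 1.37 to 1.73 and their Pol ε density 0.953 to 1.24. R was 0.491 to 0.501, and over the 12 unused pairs none of the 4 left 0.467 to 0.524. They were 67.3 to 68.1% AT. Repeat copies in these intervals are alike, and how reads that match several copies were placed is not given in the sources used here. The 2 ChrII stretches had nearly equal M in a pair, such as 0.575 and 0.576 in inverted RTS1. Their R often lay on opposite sides of 0.5, as 0.514 and 0.480 there and 0.469 and 0.524 in RTS1 at ChII-8535. Both were 0.508 in rnh201-d with the barrier on. Whether shared reads link the 2 was not tested, so they may not be independent values. Without the 4 centromeric stretches the median M of the stretches was 0.457.

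Pol α, which starts each Okazaki fragment and so marks the lagging strand, was counted in 4 libraries that took no part in the choice. Its share on the forward strand had a median over the stretches of 0.491 in RED with the barrier on and 0.488 in RED with it off. It was 0.496 both in rnh201-d with the barrier on and in rnh201-d with it off. It lay within 0.40 to 0.60 at 107 of 115 stretches in RED with the barrier on (28.6% of the other windows), 112 in RED with it off (26.4%), 114 in rnh201-d with the barrier on (26.1%) and 101 in rnh201-d with it off (33.5%). The last library, the one without counts over pku70, had the widest spread, from 0.274 to 0.672. Pol α follows the same fork direction that the stretches were chosen on. The gap between the stretches and the other windows in these shares is therefore no finding in itself. The amount of Pol α signal was close to that elsewhere, with median densities of 0.997 to 1.06 over the 4 libraries, against 1.03 to 1.08 in the other windows.

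Whether pku70 or the rnh201 allele changed the balance of the polymerases was tested with edgeR's quasi-likelihood test on the 8 barrier-on libraries. The test covered 8380 windows of 3 kb per strand. Of these, 744 had their centre in a stretch and are counted below as in a stretch. No window passed an adjusted p of 0.05 for pku70 in either direction (0.0% of all windows higher and 0.0% lower), and none for the rnh201 allele (0.0% and 0.0%). At an unadjusted p under 0.05 there were 5 in the stretches and 609 in all for pku70, and 43 and 896 for the rnh201 allele. Other fits did make calls. With the pair as a replicate block edgeR called 147 windows for pku70, 1 of them in a stretch, and 859 for the rnh201 allele, 45 of them in a stretch, with 1 residual degree of freedom. Without the RED pku70-d or the RED Pol ε library, edgeR called 299 windows for pku70 in each case, 2 and 1 of them in a stretch. For the rnh201 allele it called 345 without the RED Pol ε library and 346 without that of rnh201-d, 10 and 9 of them in a stretch, 136 and 135 without those of RED pku70-d and rnh201-d pku70-d, 1 each in a stretch, and 40 without the RED Pol δ library, 0 in a stretch. Leaving out any other library gave at most 6 windows for pku70 and 1 for the rnh201 allele, 0 of them in a stretch. DESeq2 called 44 windows for pku70, 0 of them in a stretch, and 254 for the rnh201 allele, 7 of them in a stretch. In the stretches the log2 change of Pol δ over Pol ε had an SD of 0.14 for pku70 (SD 0.28 over all windows) and 0.23 for the rnh201 allele (0.32). The 4 rnh201-d libraries labelled pku70-d, of which 2 are in this fit, had counts over pku70, so the pku70 test mixes strains with and without the gene. In the RED libraries alone, with the barrier on and off, no window was called for pku70 by edgeR, with 17 in the stretches at an unadjusted p under 0.05 (395 in all).

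The lowest adjusted p for the rnh201 allele in a stretch, 0.260 by edgeR, was at ChrI 1920001 to 1923000, forward strand, in the SPAP14E8.05C stretch. Pol δ had 99.7 and 103 CPM (counts scaled to library size) there in RED pku70-d and RED, against 149 and 144 in rnh201-d pku70-d and rnh201-d. Pol ε had 104 and 104 in the same RED pairs, against 106 and 101. The Pol δ values did not overlap and the Pol ε values did, in a window picked for its low p. The log2 change of Pol δ over Pol ε was -0.70 in RED relative to rnh201-d, and it was not called. For pku70 the lowest in a stretch was 0.671 by edgeR, shared by several windows. Of these, ChrI 1302001 to 1305000 on the reverse strand in the cdc48 stretch had the largest log2 change. It had 68.4 and 44.9 CPM of Pol δ in RED pku70-d and in rnh201-d pku70-d, against 70.1 and 42.9 in RED and rnh201-d. Pol ε had 89.2 and 56.4 there in the pku70-d pairs, against 125 and 83.7. Pol ε was lower in each pair labelled pku70-d than in its pku70+ counterpart, Pol δ was not, and the log2 change of Pol δ over Pol ε was 0.58. The rnh201-d pku70-d pair kept counts over pku70, so the pairs labelled pku70-d do not stand for repeated loss of the gene. At the window with the lowest unadjusted p, ChrII 216001 to 219000 on the reverse strand, the log2 change was 0.39.

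Protein-coding genes covered a median of 83.5% of their bases, against 81.6% in the other windows. At least 1 tRNA gene was found in 9 stretches (7.8%, against 6.6%), and 4 stretches, the centromeric ones, had no protein-coding gene (3.5%, against 1.2%). A long terminal repeat of a retrotransposon was found in 15 (13.0%, against 8.5%), the longest of which was the steady prl65 stretch. The 15 had R of 0.460 to 0.546 with the barrier on and M of 0.408 to 0.535, both within the range of the other stretches. The dhp1 and rrp8 stretches were among them. The stretches are longer than the windows, so these shares are not matched for length.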

How the data were processed

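Per the labels, DNA was cut by alkali at ribonucleotides, and the deposited counts, made by the authors with Bowtie2, are raw read counts per 300-bp bin and strand in 72 files. The genome build is not given in the sources used here. File coordinates are printed; on ChrI they equal those of ASM294v3, and genes elsewhere were matched after offsets found by correlating count profiles. Pairs with other genome lengths were aligned in the same way. R and M per stretch come from summed counts scaled by library total (Python 3.11.15, pandas 2.3.3). edgeR 4.0.16 (R 4.3.3) was fitted to windows whose count was 10 or more in each library, TMM-scaled, with polymerase, pku70, rnh201 allele and their interactions with polymerase, adjusted by Benjamini-Hochberg. It was tested on simulated data. DESeq2 1.42.0 was an alternative. Counting errors cover counting only. The stretches named are the 6 longest, the 3 with the widest and 3 with the narrowest R range, the extremes of M, centromeric and repeat-holding ones and those near constructs; others were named after their values were seen. Members and lists were chosen with earlier results of these data known.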

Additional observations from a re-analysis of the deposited data

How the results depend on the processing

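The number of stretches follows the limits set. It was 36 with R from 0.45 to 0.55, 175 with 0.40 to 0.60, 202 for runs of 15 or more bins and 73 for 25 or more, of which 35, 175, 199 and 73 were within their limits in all 4 barrier-on pairs. The total length was 312.3 kb and 1785 kb for the narrower and wider limits. Other smoothing, median-bin scaling and setting extreme bins aside gave 105 to 129 stretches. Leaving out each barrier-off pair in turn gave 110 to 120 stretches, 1011.6 to 1139.1 kb and 109 to 118 within the limits in the barrier-on pairs. The median M was 0.484 with median-bin scaling. For pku70 DESeq2 called 44 windows, and a fit with the pair as a replicate block called 147 (1 in a stretch). For the rnh201 allele, DESeq2 called 254, all 16 libraries with barrier as a term 144 (3 in stretches) and the replicate block 859 (45). Leaving out 1 library gave 0 to 299 windows for pku70 and 0 to 346 for the rnh201 allele, with at most 2 and 10 in stretches; the highest counts came without the RED Pol ε libraries for pku70, and without the RED or the rnh201-d Pol ε library for the rnh201 allele. The cause was not tested. The replicate block and the fits without 1 library leave 1 residual degree of freedom. Library totals in place of TMM, and no filter, called 0 for both. The RED libraries alone, added after the data were seen, called 0.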

Other observations

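No stretch named with its value in every pair had 1 of the 4 barrier-on pairs far from the other 3 by Dixon's criterion, among 16 sets examined. In the barrier-off pairs, whose values chose the stretches and are given with no test, R at ChrII 3389401 to 3395400 was 0.504 in RED pku70-d, against 0.480 to 0.483 in the other 3.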
